A study of Homo sapiens with 12 samples.

Results

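The genes described here are 10 effector genes known for their induction by retinoids: TGM2, PLAAT4, RHBDL3, ASB2, PRAM1, HIC1, ID1, ID2, THBS1 and TNFAIP2. They were taken by name, each as the row of the count table whose Ensembl identifier carries that symbol, and were followed through 4 groups of 3 RNA-seq libraries. The choice was made with earlier results of these data known. All 10 were found among 61487 gene identifiers, and all 10 passed the filter on low counts that left 16104 genes for testing. The cells were MOLM14, a human acute myeloid leukemia line of monocytic type with a KMT2A fusion and an internal tandem duplication of FLT3. In every group the cells carried a doxycycline-inducible short hairpin RNA directed at NRIP1, the gene of the nuclear receptor coregulator RIP140. The first group had both all-trans retinoic acid (ATRA) and doxycycline (DOX), the second had ATRA at 1 µM for 48 h, the third had DOX at 50 ng/mL, renewed every other day, and the fourth was untreated. The line is a single one, and no group with DOX and a control hairpin was analysed here, so an effect of DOX itself and an effect of the hairpin cannot be told apart. The submitters call the libraries of a group biological replicates.

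Retinoic acid acts through nuclear receptors, the RARs, which bind DNA as pairs with RXRs at direct repeats of a short half-site. Without ligand the pair holds corepressors at its targets, and ligand exchanges them for coactivators. RIP140 is unusual in that it binds receptors carrying their agonist and yet acts mostly as a repressor. In promyelocytic leukemia, ATRA drives maturation, and several of the genes here were first described as targets of that response.

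The libraries held 2685984 to 19358619 counts, a ratio of 7.21, and the smallest was replicate 3 of DOX. NRIP1, the hairpin's target, had 15.8, 20.8 and 19.9 CPM with ATRA and DOX and 38.4, 41.0 and 51.7 CPM with ATRA. It had 19.1, 15.0 and 15.7 CPM with DOX and 59.6, 58.8 and 53.1 CPM in untreated cells, so that the libraries with DOX and those without it did not overlap. On the log2 scale NRIP1 fell by 1.22 ± 0.13 with DOX in ATRA-treated cells (adjusted p = 6.5e-06) and by 1.77 ± 0.13 with DOX alone (adjusted p = 1.47e-07). All 11 genes of a list of myeloid leukemia markers were detected, at 1320 to 1530 CPM in sum with ATRA and DOX, 1370 to 1450 with ATRA, 1480 to 1550 with DOX and 1300 to 1400 in untreated cells. Throughout, CPM are counts relative to library size, scaled by the trimmed mean of M-values (TMM). Errors on log2 changes are approximate standard errors, the size of the change divided by the square root of its test's F statistic. They understate the error of the ATRA changes of TGM2, RHBDL3 and THBS1, which have few counts without ATRA. Adjusted p-values are Benjamini-Hochberg values over 16104 genes from edgeR's quasi-likelihood test, called below 0.05.

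Promoter windows of 250 bases before to 50 bases after the start, from RefSeq on GRCh38.p14, were matched for 5 of the 10 genes. ID1 and ID2 are printed because they belong to a single family of which ID1 rose with ATRA and ID2 was not called. ASB2 and THBS1 are printed because they were called higher with DOX as well as with ATRA, as ID1 and PRAM1 also were. The DOX call of ASB2 was lost in 17 of 21 alternative settings. Capitals mark the retinoid receptor half-site AGGTCA, its variant GGGTCA or another variant, AGTTCA, each sought on both strands; the windows lie at chr20:31605039-31605338 on the plus strand, chr2:8681806-8682105 on the plus strand, chr14:93976521-93976820 on the minus strand and chr15:39580829-39581128 on the plus strand.
ID1: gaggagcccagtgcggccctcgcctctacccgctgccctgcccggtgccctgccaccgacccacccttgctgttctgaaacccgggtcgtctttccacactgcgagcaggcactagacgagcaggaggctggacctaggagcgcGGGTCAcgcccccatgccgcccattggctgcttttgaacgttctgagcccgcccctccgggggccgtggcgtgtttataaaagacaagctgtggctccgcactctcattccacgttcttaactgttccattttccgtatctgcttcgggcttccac
ID2: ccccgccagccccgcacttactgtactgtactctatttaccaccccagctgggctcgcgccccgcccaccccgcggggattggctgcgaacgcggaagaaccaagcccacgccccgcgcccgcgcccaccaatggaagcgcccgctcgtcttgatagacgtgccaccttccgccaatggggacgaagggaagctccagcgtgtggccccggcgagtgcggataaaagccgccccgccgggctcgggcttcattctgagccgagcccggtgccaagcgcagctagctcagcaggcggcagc
ASB2: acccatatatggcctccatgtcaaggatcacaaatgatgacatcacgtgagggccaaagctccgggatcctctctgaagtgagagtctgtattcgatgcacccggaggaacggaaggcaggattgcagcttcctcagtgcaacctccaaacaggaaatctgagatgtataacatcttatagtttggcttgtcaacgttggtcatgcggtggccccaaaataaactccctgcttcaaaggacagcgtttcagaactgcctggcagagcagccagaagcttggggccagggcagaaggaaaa
THBS1: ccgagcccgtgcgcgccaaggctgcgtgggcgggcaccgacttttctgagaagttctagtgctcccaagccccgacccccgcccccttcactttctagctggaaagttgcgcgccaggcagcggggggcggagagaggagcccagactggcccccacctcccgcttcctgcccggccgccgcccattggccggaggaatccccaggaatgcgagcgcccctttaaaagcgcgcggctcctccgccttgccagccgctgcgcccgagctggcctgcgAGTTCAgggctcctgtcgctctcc
The ID1 window holds GGGTCA from 106 to 101 bases before the start, and the THBS1 window holds AGTTCA from base 27 to base 32 after it. The TNFAIP2 window, not printed, holds AGGTCA on the opposite strand from base 29 to base 34 after the start. The ASB2 and ID2 windows hold no half-site of these letters. A half-site was thus found in 3 of 5 windows, while 33.2% of 35116 promoter windows of the same length hold one. Direct repeats of 2 half-sites with 1, 2 or 5 bases between them were in 0 of 5 windows, against 0.122%, 0.0285% and 0.0427% of all windows. The GC box GGGCGG was in 4 of the 5 windows and in 45.0% of all windows, and TATAAA was in that of ID1 and in 11.5% of all windows. The THBS1, ID1, ID2 and TNFAIP2 windows are rich in G and C, at 70.0%, 62.7%, 69.0% and 75.7%, while that of ASB2 has 50.7% and the median of all windows is 58.7%.

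Levels set per length separated the genes into those already transcribed without ATRA and those that were almost silent. In CPM per kb of exonic length, the ATRA-treated cells had their highest mean level for TGM2 at 38.0, followed by PRAM1 at 31.6, TNFAIP2 at 23.0, HIC1 at 21.4, ID1 at 17.4, RHBDL3 at 13.2, ID2 at 7.84, PLAAT4 at 6.13, THBS1 at 3.75 and ASB2 at 1.46. In untreated cells the order was led by TNFAIP2 at 11.4, PRAM1 at 11.3, ID2 at 10.7 and ID1 at 5.70 CPM per kb. HIC1 had 1.58 and PLAAT4 0.516 CPM per kb there, and ASB2, RHBDL3, TGM2 and THBS1 were all under 0.1. TGM2 was thus first among the 10 in ATRA-treated cells and next to last in untreated cells.

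**Figure D1:**
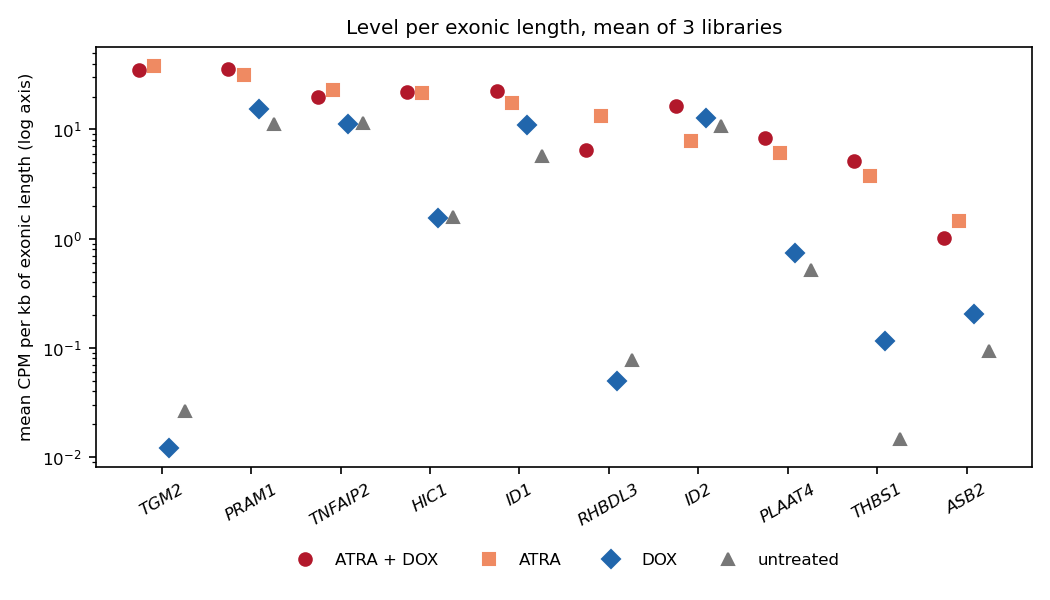
Mean level of each gene per kb of exonic length (CPM per kb, log axis) in cells with ATRA and DOX, with ATRA, with DOX and without treatment, each the mean of 3 libraries, ordered by the level with ATRA. TGM2 lies at 38.0 with ATRA and 0.0266 in untreated cells, while ID2 stays between 7.84 and 16.3 in all groups.

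With ATRA against untreated cells, 9 of the 10 genes rose and none fell, where 15.7% of all tested genes were called higher and 13.2% lower. The 10 were picked as retinoid-induced genes, with earlier results of these data known, so the count is no independent test of induction. The median log2 change of the 10 was 3.72, beside a median of -0.015 over all tested genes. With ATRA added to DOX, against DOX alone, the same count of 9 rose and 0 fell, against 10.7% of all genes called higher and 8.24% lower, with a median of 2.77 beside -0.011. In both comparisons the gene that was not called was ID2. The changes spread from near 1 for TNFAIP2 to above 10 for TGM2 on the log2 scale. In RNA from whole cultures, more cells expressing a gene and more of its RNA per cell cannot be told apart.

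**Figure D2:**
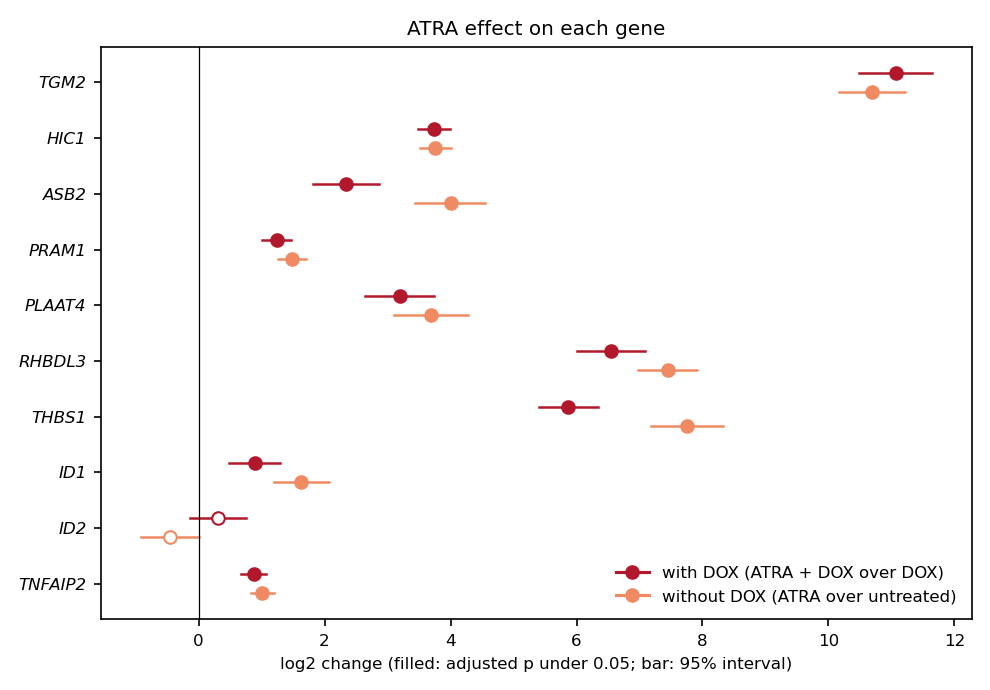
Log2 change with ATRA for each gene, with DOX (ATRA and DOX over DOX) and without DOX (ATRA over untreated), with approximate 95% intervals. The intervals of TGM2, RHBDL3 and THBS1 are too narrow, as their groups without ATRA have few counts. Filled points passed an adjusted p of 0.05. Every gene but ID2 has filled points to the right of 0 in both, from 0.88 to 11.07 with DOX and from 1.01 to 10.69 without it.

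TGM2, tissue transglutaminase, cross-links proteins through glutamine and lysine and is a long-known retinoid target of myeloid cells. It lies at chr20:38127387-38166578 on the minus strand (GRCh38, GENCODE 29). Its level was 278, 246 and 312 CPM with ATRA and DOX and 312, 252 and 350 CPM with ATRA. With DOX it had 0.238, 0.0548 and 0 CPM, and untreated cells had 0.386, 0.257 and 0 CPM. The ATRA-treated libraries stood apart from all others, and the sums of 4 counts with DOX and 7 in untreated cells leave the lower level poorly known. The largest library at 0, replicate 3 of untreated cells, allows up to 0.165 CPM (3 counts), and replicate 3 of DOX up to 1.15 CPM, both for counting error alone. The ratio of ATRA to untreated, from summed counts, was 1770 with a 95% counting interval of 857 to 4390, and the fitted log2 change was 10.69 ± 0.26 (adjusted p = 3.64e-17). That was the second-highest change among all tested genes. With DOX present the ratio was 2310, with an interval of 902 to 8480, and the log2 change 11.07 ± 0.30 (adjusted p = 3.47e-16). Between ATRA with DOX and ATRA alone the libraries overlapped, and the log2 difference was -0.13 ± 0.12 (adjusted p = 0.617), with a 95% interval from -0.37 to 0.11. Of 8 transglutaminase genes 3 were tested, and besides TGM2 it was TGM5 that rose, by 2.73 ± 0.12 with ATRA (adjusted p = 3.21e-13) and by 1.92 ± 0.12 with ATRA on DOX (adjusted p = 1.75e-10).

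PLAAT4, also known as RARRES3 or retinoid-inducible gene 1, is a small phospholipase and acyltransferase on chromosome 11. It had 9.18, 10.3 and 12.7 CPM with ATRA and DOX and 8.24, 7.85 and 7.79 CPM with ATRA. Its level with DOX was 1.35, 1.15 and 0.383 CPM, against 0.964, 0.77 and 0.276 CPM in untreated cells. The libraries with ATRA and DOX were all above those with ATRA alone, but the log2 difference of 0.41 ± 0.21 did not pass (adjusted p = 0.283). The log2 change with ATRA was 3.69 ± 0.30 (adjusted p = 4.77e-09), and with ATRA on DOX it was 3.20 ± 0.28 (adjusted p = 2.51e-08). Of 5 PLAAT genes 2 were tested, PLAAT4 itself and PLAAT3, a phospholipase of the same family. PLAAT3 was also called higher, by 1.77 ± 0.20 with ATRA and by 0.97 ± 0.20 with ATRA on DOX.

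RHBDL3 belongs to the rhomboid proteases, which cut proteins within membranes; it lies on chromosome 17. It was at 25.9, 37.1 and 41.8 CPM with ATRA and DOX, against 72.8, 66.3 and 74.6 CPM with ATRA. Cells with DOX had 0.477, 0.329 and 0 CPM, and untreated cells had 0.578, 0.342 and 0.331 CPM. Every library with both agents was below every library with ATRA alone, and both sets were far above the rest. RHBDL3 rose by 7.45 ± 0.24 with ATRA (adjusted p = 1.02e-15) and by 6.55 ± 0.28 with ATRA on DOX (adjusted p = 1.34e-13). With both agents against ATRA it was lower, at a log2 difference of -1.04 ± 0.13 (adjusted p = 6.52e-05). That call held under all alternative settings tried, with values from -1.27 to -0.854. DOX alone, against untreated cells, gave -0.15 ± 0.60 (adjusted p = 0.896) from 12 and 16 counts, with a 95% interval from -1.33 to 1.03 that holds the difference measured under ATRA. Of 6 rhomboid genes 5 were tested, and RHBDL1 (1.41 ± 0.30) and RHBDF2 (0.76 ± 0.12) also rose with ATRA.

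ASB2 is the substrate-binding part of a ubiquitin ligase that directs filamins to degradation; it was found as an ATRA-induced gene in promyelocytic leukemia cells. Its level was 5.88, 4.65 and 4.87 CPM with ATRA and DOX and 7.23, 8.38 and 6.54 CPM with ATRA. With DOX alone it was 0.874, 1.1 and 1.15 CPM, against 0.482, 0.599 and 0.331 CPM in untreated cells. No pair of neighbouring groups overlapped: ATRA was highest, then both agents, then DOX, then untreated cells. ASB2 rose by 4 ± 0.28 with ATRA (adjusted p = 4.82e-10) and by 2.34 ± 0.27 with ATRA on DOX (adjusted p = 1.38e-06). The summed counts gave ratios of 16.4 (interval 10.2 to 28.1) for ATRA over untreated and 5.15 (3.57 to 7.64) for both agents over DOX. The difference of these effects was -1.66 ± 0.43 on the log2 scale and did not pass over all genes (adjusted p = 0.113), except without replicate 1 of DOX, where it was -1.78 (adjusted p = 0.0359). Of the 7 ligase partners and filamins listed, none was called with ATRA against untreated cells in either direction. FLNA, filamin A, averaged 334 ± 41.8 CPM with both agents and 537 ± 34.1 CPM with ATRA (SD, n = 3), a log2 difference of -0.68 ± 0.10 (adjusted p = 0.000187). It averaged 469 ± 43.9 CPM with DOX and 586 ± 8.78 CPM in untreated cells. It was called lower there too, a call lost in 7 of 21 alternative settings. These are RNA levels, which do not measure degradation of filamin protein, and a link to ASB2 was not tested.

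PRAM1 is an adaptor protein of myeloid cells, named for its regulation by the PML-RARA fusion and ATRA. It had 132, 130 and 140 CPM with ATRA and DOX and 129, 107 and 120 CPM with ATRA. With DOX the libraries had 62.7, 45.9 and 66.3 CPM, against 45.0, 38.0 and 44.6 CPM in untreated cells. All libraries with ATRA lay above all libraries without it, and each with DOX alone was above each untreated one. PRAM1 rose by 1.48 ± 0.11 with ATRA (adjusted p = 1.46e-09) and by 1.24 ± 0.11 with ATRA on DOX (adjusted p = 5.81e-08). Among 6 listed adaptor and kinase partners 4 were tested and 3 rose with ATRA, where 15.7% of all tested genes were called higher. The 3 were LCP2 (1.61 ± 0.09), an adaptor of immune receptor signalling, the SRC-family kinase LYN (0.60 ± 0.08) and the adaptor FYB1 (0.49 ± 0.13).

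HIC1 is a zinc finger transcriptional repressor at chromosome 17. It stood at 150, 182 and 197 CPM with ATRA and DOX and at 188, 156 and 178 CPM with ATRA. With DOX it had 12.7, 14.5 and 10.3 CPM and in untreated cells 13.8, 11.6 and 13.1 CPM. The libraries with and without DOX overlapped, both in the presence of ATRA and in its absence. HIC1 rose by 3.76 ± 0.12 with ATRA (adjusted p = 1.02e-15) and by 3.74 ± 0.13 with ATRA on DOX (adjusted p = 5.16e-15), and the 95% interval of the difference between these effects ran from -0.36 to 0.31. Of its exonic length 29.83% overlaps SMG6 on the opposite strand, and whether counting used strand is not given in the sources used here. Reads of the shared part cannot be told apart without strand, and HIC1 is in that respect uncertain. No other gene of its list of 5 (the HIC family and SIRT1) was called with ATRA.

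ID1 and ID2 are helix-loop-helix proteins without a DNA-binding region, which hold E proteins away from DNA; both are known targets of bone morphogenetic protein signalling. ID1 had 21.8, 32 and 29.9 CPM with ATRA and DOX and 20.6, 24.6 and 19.2 CPM with ATRA. With DOX it had 10.8, 20.8 and 9.2 CPM, against 8.29, 7.18 and 5.62 CPM in untreated cells. All libraries with DOX alone lay above all untreated ones, and replicate 2 of DOX reached the range of the ATRA group. ID1 rose by 1.63 ± 0.22 with ATRA (adjusted p = 8.47e-06) and by 0.89 ± 0.21 with ATRA on DOX (adjusted p = 0.00401).

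ID2 had another pattern than ID1. Its level was 18.8, 44.6 and 44.6 CPM with ATRA and DOX and 16.5, 18.3 and 17 CPM with ATRA. With DOX it was 21.9, 36.4 and 24.9 CPM, against 26.0, 22.2 and 22.7 CPM in untreated cells. Each ATRA library lay below each untreated one, but the log2 difference of -0.45 ± 0.24 was not called (adjusted p = 0.159). It was called in 5 of 21 alternative settings, always lower. With both agents against DOX the difference was 0.31 ± 0.23 (adjusted p = 0.385). With both agents against ATRA, ID2 was higher by 1.04 ± 0.23 (adjusted p = 0.0116), from replicates 2 and 3, while replicate 1 was close to the ATRA libraries. Without replicate 2 or replicate 3 of the combined group, or replicate 1 or 3 of ATRA, the call was lost, with log2 differences from 0.846 to 1.04 and adjusted p from 0.0593 to 0.0829. The pair of libraries with the most ID2, and the DOX library with the most ID2, were also the highest in ID1 of their groups.

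**Figure D3:**
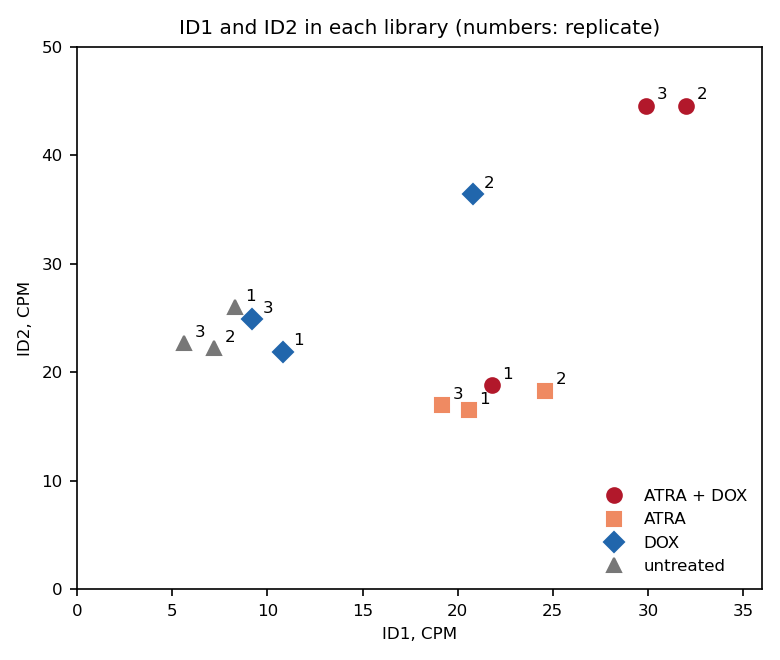
ID1 (horizontal) and ID2 (vertical) in CPM, one point per library, numbered by replicate within its group. The 3 ATRA libraries lie to the right of and below the 3 untreated ones, while replicates 2 and 3 with both agents (ID2 at 44.6) and replicate 2 of DOX (ID2 at 36.4) lie above the rest.

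Of 7 listed ID and E protein genes 5 were tested. Besides ID1, which rose, TCF3 (-0.46 ± 0.08) and TCF4 (-0.93 ± 0.32), which encode E proteins, fell with ATRA against untreated cells. The TCF4 call was lost in 8 of 20 alternative settings, those without replicate 1 or 2 of ATRA or any single untreated library included. Of 6 genes of feedback in bone morphogenetic protein and TGF-beta signalling, all tested, 3 rose and 2 fell with ATRA. The shares of all tested genes were 15.7% called higher and 13.2% lower. NOG, an extracellular antagonist of bone morphogenetic proteins, fell by 2.91 ± 0.34 on the log2 scale (adjusted p = 1.04e-06), and BAMBI, a decoy receptor, fell by 1.45 ± 0.29 (adjusted p = 0.000639). SKIL, a repressor of SMAD complexes, rose by 1.02 ± 0.14 (adjusted p = 1.06e-05), and SMAD6, an inhibitory SMAD, rose by 0.35 ± 0.11 (adjusted p = 0.0172), a call lost in 5 of 21 alternative settings, those without replicate 1 or 3 of untreated cells included.

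THBS1 encodes thrombospondin 1, a secreted matrix protein that binds CD36 and CD47 and activates latent TGF-beta. It had 47.7, 48.1 and 45.1 CPM with ATRA and DOX and 33.1, 34.5 and 35.4 CPM with ATRA. With DOX it had 1.35, 0.274 and 1.53 CPM, and untreated cells had 0.0964, 0.0855 and 0.221 CPM. The 4 groups did not overlap at any step, in the order both agents, ATRA, DOX, untreated cells. THBS1 rose by 7.75 ± 0.29 with ATRA (adjusted p = 1.32e-14; 1215 counts over 6, ratio 229 with an interval of 105 to 624) and by 5.87 ± 0.24 with ATRA on DOX (adjusted p = 7.19e-14). With both agents against ATRA it was higher by 0.46 ± 0.14, which did not pass (adjusted p = 0.0609) but was called in 7 of 21 alternative settings. Thrombospondin 1 is abundant in platelets. Of 5 listed markers of megakaryocytes and platelets, PF4 and PPBP had 0 counts in all 12 libraries. The others had counts: GP1BA was at 2 to 5.51 CPM, GP9 at 0.684 to 3.07 CPM and ITGA2B at 0.0962 to 0.766 CPM. The 5 markers of megakaryocytes and platelets summed to 4.01 to 6.06 CPM with both agents, 5.33 to 6.83 with ATRA, 3.67 to 7.66 with DOX and 3.76 to 7.06 in untreated cells. Of 7 thrombospondins and receptors, THBS1 included, 6 were tested. With ATRA 4 rose, THBS1 among them, and 1 fell, where 15.7% of all tested genes were called higher and 13.2% lower. The receptor CD36 rose by 0.97 ± 0.11 (adjusted p = 8.6e-07), while CD47 fell by 0.26 ± 0.09 (adjusted p = 0.0362), a call lost in 8 of 21 alternative settings, among them those without replicate 1 or 2 of ATRA or replicate 2 of untreated cells. CD36 was lower with both agents than with ATRA alone, at -0.69 ± 0.11 (adjusted p = 0.000611).

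TNFAIP2 was found as a gene induced by tumor necrosis factor and by retinoic acid; its protein resembles a subunit of the exocyst and takes part in forming membrane nanotubes. It had 103, 93.9 and 104 CPM with ATRA and DOX and 117, 113 and 117 CPM with ATRA. The DOX libraries had 60.5, 45.5 and 61.3 CPM, and the untreated ones had 57.6, 55.9 and 58.3 CPM. Libraries with both agents were all below those with ATRA, but the log2 difference of -0.20 ± 0.09 was not called (adjusted p = 0.244). TNFAIP2 rose by 1.01 ± 0.10 with ATRA (adjusted p = 4.29e-08) and by 0.88 ± 0.10 with ATRA on DOX (adjusted p = 1.05e-06), the smallest called changes of the 10. Among 9 genes of its EXOC3 family and of reporters of NF-kB activity, TNFAIP2 included, 6 were tested. With ATRA 3 rose, TNFAIP2 among them, and 1 fell, where 15.7% of all tested genes were called higher and 13.2% lower. RELB (0.99 ± 0.16) and NFKB2 (0.45 ± 0.12), subunits of NF-kB, rose with ATRA, and TNFAIP3, an inhibitor of the pathway, fell by 0.73 ± 0.15. No gene of the EXOC3 family other than TNFAIP2 was called.

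**Figure D4:**
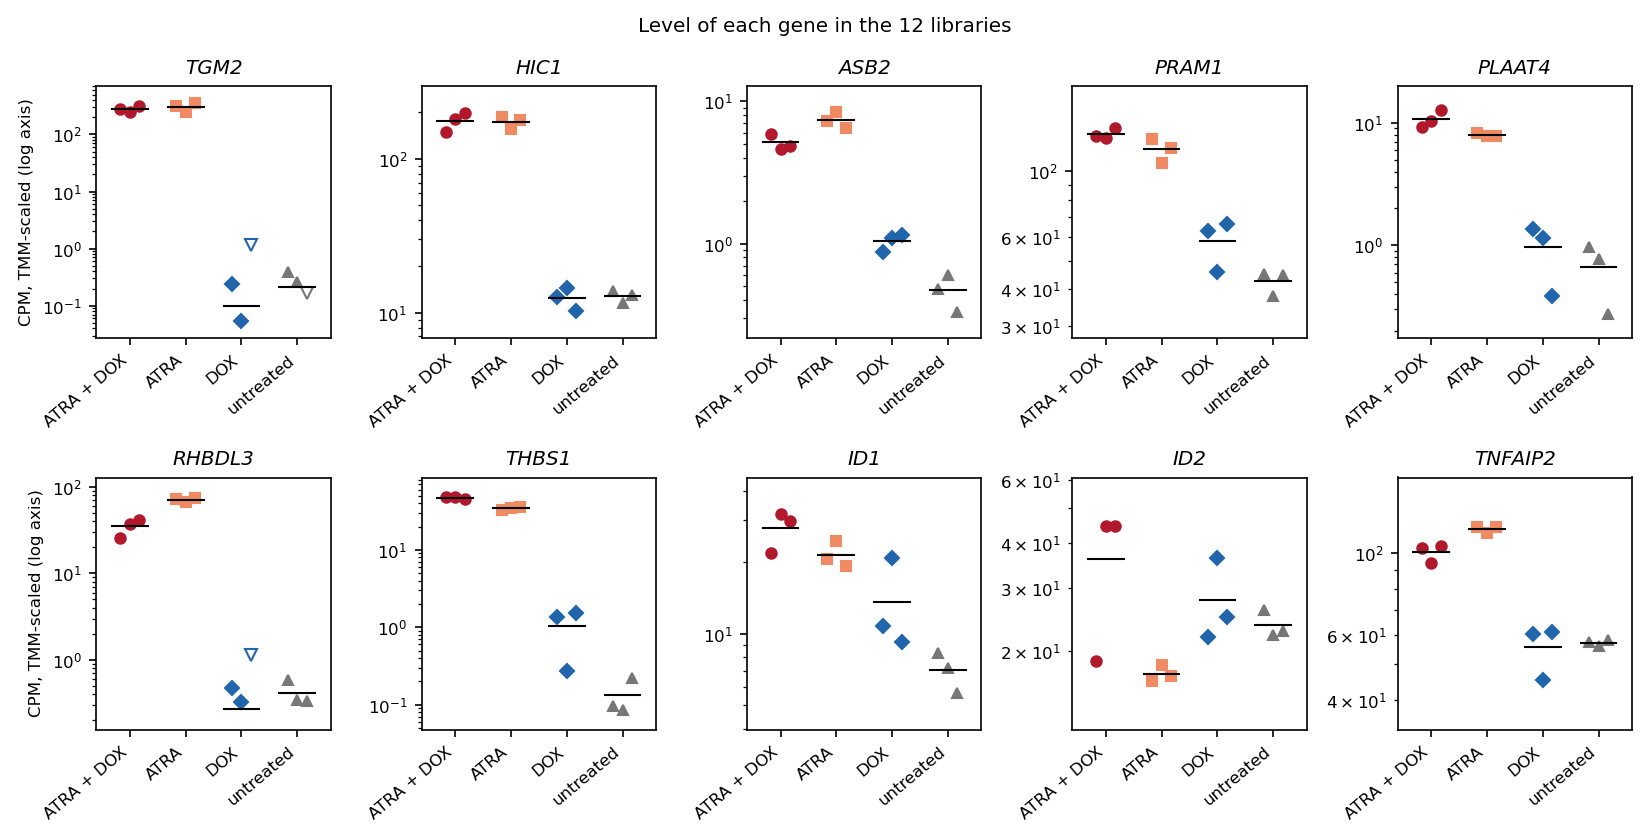
Level of each gene in the 12 libraries (TMM-scaled CPM, log axis of its own range), with replicates 1 to 3 from left to right and a line at the mean of 3; open triangles mark libraries with 0 counts, drawn at the upper limit of 3 counts. TGM2, RHBDL3 and THBS1 separate furthest between libraries with and without ATRA, and ID2 has its 3 lowest values in the ATRA libraries.

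With DOX against untreated cells, 4 of the 10 genes rose and none fell, against 8.08% of all tested genes called higher and 7.10% called lower. The median log2 change of the 10 was 0.35, beside 0.005 for all genes. THBS1 rose by 2.33 ± 0.61 (adjusted p = 0.0159), on 26 counts over 6 and a ratio of 5.21 with an interval of 2.1 to 15.5. ASB2 rose by 1.15 ± 0.38 (adjusted p = 0.0456), ID1 by 1.11 ± 0.23 (adjusted p = 0.00518) and PRAM1 by 0.42 ± 0.12 (adjusted p = 0.0239). PLAAT4 was at 0.91 ± 0.41 (adjusted p = 0.131), and TGM2, HIC1, RHBDL3, ID2 and TNFAIP2 were not called. The calls depend on single libraries: without replicate 2 of DOX, ID1 was at 0.595 (adjusted p = 0.123), and without replicate 1 of DOX, THBS1 was at 1.49 (adjusted p = 0.114). The ASB2 call was lost in 17 of 21 alternative settings and that of PRAM1 in 9, those without replicate 1 or 3 of DOX or replicate 2 or 3 of untreated cells included. The share of counts from mitochondrial ribosomal RNA moved with these groups, at 2.177%, 1.02% and 1.296% with DOX against 2.538%, 2.851% and 4.6% in untreated cells. With that share as a term in the model, THBS1 was still called and the other 3 were not. ASB2 was then at 1.04 (adjusted p = 0.609) and PRAM1 at 0.518 (adjusted p = 0.216), both near or above their values without the term, while ID1 was at 0.457 (adjusted p = 0.703).

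**Figure D5:**
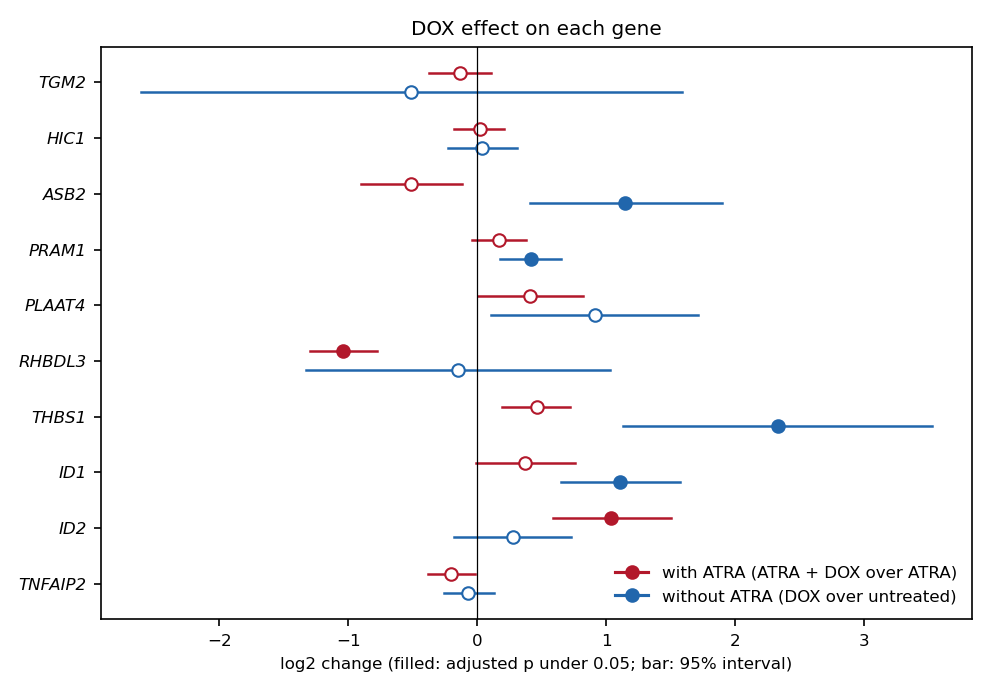
Log2 change with DOX for each gene, with ATRA (ATRA and DOX over ATRA) and without it (DOX over untreated), with 95% intervals; filled points passed an adjusted p of 0.05. With ATRA the filled points are RHBDL3 at -1.04 and ID2 at 1.04; without it they are THBS1 at 2.33, ASB2 at 1.15, ID1 at 1.11 and PRAM1 at 0.42.

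Under ATRA, 2 of the 10 genes were called with DOX. ID2 was higher and RHBDL3 lower with both agents than with ATRA, against 1.89% of all tested genes called higher and 2.54% called lower. The RHBDL3 call held in all 21 alternative settings, while that of ID2 was lost in 4 of 21. The median log2 difference of the 10 was 0.09, beside 0 for all genes. The others were not called after adjustment. Their 95% intervals left out 0 for ASB2 (-0.90 to -0.12), THBS1 (0.19 to 0.72), PLAAT4 (0.01 to 0.82) and TNFAIP2 (-0.38 to -0.02). They held 0 for TGM2 (-0.37 to 0.11), HIC1 (-0.18 to 0.21), PRAM1 (-0.04 to 0.38) and ID1 (-0.01 to 0.76). For HIC1 the difference was 0.02 ± 0.10 (adjusted p = 0.952), for PRAM1 0.17 ± 0.11 (adjusted p = 0.424), for ID1 0.37 ± 0.20 (adjusted p = 0.318) and for ASB2 -0.51 ± 0.20 (adjusted p = 0.165). The mitochondrial ribosomal RNA share was 1.984%, 2.024% and 1.235% with both agents against 2.087%, 2.745% and 2.641% with ATRA. With it as a term in the model ID2 and RHBDL3 were still called, and THBS1 was called as well, at 0.64 (adjusted p = 0.0168).

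Whether the ATRA effect differed between cells with and without DOX was tested as an interaction. None of the 10 was called in either direction, where 0.0435% of all tested genes had a positive interaction, a log2 change with ATRA that was higher with DOX than without it, and 0.224% had a negative one. At an unadjusted p under 0.05 there were 4 members, namely ASB2, THBS1, ID1 and ID2, and DESeq2 called 0. The share of all tested genes at that unadjusted threshold was not counted, so the 4 cannot be set against it. The interaction was -1.88 ± 0.63 for THBS1 (adjusted p = 0.277), -1.66 ± 0.43 for ASB2, -0.74 ± 0.31 for ID1 (adjusted p = 0.40) and 0.77 ± 0.33 for ID2 (adjusted p = 0.414). Without replicate 2 of DOX, which had the least THBS1 of its group, the value for THBS1 was -2.67 (adjusted p = 0.0158). Without replicate 1 of DOX that of ID1 was -0.977 (adjusted p = 0.0451), and without replicate 1 of the combined group that of ID2 was 1.10 (adjusted p = 0.0107). Most settings gave no call: THBS1 was not called in 19 of 20 alternative settings, and ID1 and ID2 each in 18 of 20. Over these settings the values ran from -2.67 to -1.03 for THBS1, from -0.977 to -0.104 for ID1 and from 0.569 to 1.13 for ID2. For TGM2 the interval ran from -1.69 to 2.45, with 4 counts in all with DOX and 7 in untreated cells.

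With both agents against untreated cells all 10 genes were called higher, against 19.6% of all tested genes called higher and 18.5% called lower. The log2 changes were 10.56 for TGM2, 8.21 for THBS1, 6.40 for RHBDL3, 4.10 for PLAAT4, 3.78 for HIC1, 3.49 for ASB2, 2.01 for ID1, 1.65 for PRAM1, 0.81 for TNFAIP2 and 0.59 for ID2. The call of ID2 (adjusted p = 0.0433) was lost in 11 of 21 alternative settings. This comparison shares its libraries with those above and is not independent of them.

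The machinery of retinoid signalling gives the setting of these changes. Of 6 receptor genes 5 were tested; with ATRA against untreated cells RXRA fell by 1.17 ± 0.08 on the log2 scale (adjusted p = 6.79e-10), RARG fell by 0.91 ± 0.18 (adjusted p = 0.000632), and none rose. RARB, itself a known target of RARs, averaged 4.79 ± 0.874 CPM with both agents, 1.63 ± 0.146 CPM with ATRA, 0.579 ± 0.262 CPM with DOX and 1.00 ± 0.384 CPM in untreated cells (SD, n = 3 each). It was higher with both agents than with ATRA by 1.52 ± 0.29 (adjusted p = 0.00355). Of 14 genes of retinoid carriers and enzymes 6 were tested, and 3 rose and 2 fell with ATRA. The shares of all tested genes were 15.7% called higher and 13.2% lower. DHRS3, which reduces retinaldehyde to retinol, rose by 6.04 ± 0.16 (adjusted p = 1.29e-16), and CYP26B1, which breaks retinoic acid down, rose by 2.88 ± 0.13 (adjusted p = 1.39e-13). ALDH1A3, which makes retinoic acid, fell by 2.51 ± 0.22 (adjusted p = 1.01e-08). CYP26A1, of the same enzyme family, did not pass the filter: it had 26 counts with both agents, 29 with ATRA and 0 with DOX or in untreated cells. CYP26B1 was lower with both agents than with ATRA, at -0.59 ± 0.11 (adjusted p = 0.00189), and DHRS9 higher, at 0.77 ± 0.11 (adjusted p = 0.000193).

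Of 19 other genes listed as retinoid-induced in myeloid cells, 15 were tested. This list, too, was chosen with earlier results of these data known. With ATRA against untreated cells 14 rose and 0 fell, where 15.7% of all tested genes were called higher and 13.2% lower. The median log2 change was 1.33, beside -0.015 over all tested genes. With ATRA on DOX 12 rose and 0 fell, against 10.7% of all genes called higher and 8.24% lower. The median was then 1.02, beside -0.011. CD38, a surface enzyme that consumes NAD, rose by 3.90 ± 0.11 with ATRA (adjusted p = 2.3e-16) and by 3.13 ± 0.11 with ATRA on DOX (adjusted p = 1.36e-14). IRF1, an interferon response factor, rose by 1.98 ± 0.08 (adjusted p = 2.77e-14) and by 1.62 ± 0.08 (adjusted p = 1.58e-12) in these comparisons. BTG2, an antiproliferative gene, rose by 2.14 ± 0.13 (adjusted p = 5.98e-11) and by 1.18 ± 0.13 (adjusted p = 9.49e-07), and ITGAM, the CD11b integrin, by 1.38 ± 0.11 (adjusted p = 2.14e-09) and by 1.32 ± 0.12 (adjusted p = 2.48e-08). With DOX alone 4 of the 15 rose and 1 fell, against 8.08% of all tested genes called higher and 7.10% lower. With both agents against ATRA 1 rose and 1 fell, against 1.89% called higher and 2.54% lower, counts too small to read further.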

How the data were processed

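The authors deposited a table of raw counts per gene, which holds 12 libraries of total RNA from MOLM14 cells. Per the submitters' processing notes, FastQC, STAR, HTSeq and GRCh38 were used; versions, annotation and strand setting are not given in the sources used here. Per the labels' protocols, libraries were sequenced in pairs of reads. Of 61487 gene identifiers 61369 were matched to a symbol, and positions and exonic lengths are from GENCODE 29; 23 empty columns were left out.

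From these deposited counts, a model of 4 group means was fitted with edgeR 4.0.16 (R 4.3.3) to the 16104 genes left by filterByExpr, with TMM scaling and quasi-likelihood tests, and p-values were adjusted over all of them at a threshold of 0.05. Each group had 3 libraries. The interaction takes the effect of ATRA among cells given DOX and subtracts its effect among cells without DOX. An interval of 95% is the estimate with a normal margin on its approximate standard error. It is too narrow for the ATRA changes of TGM2, RHBDL3 and THBS1, whose ratios of summed counts have wider intervals. Intervals on ratios of summed counts are exact and cover counting error only. The scripts were tested on simulated counts. Depth was 2685984 to 19358619 counts, and the biological coefficient of variation was 9.54%.

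The alternatives were DESeq2 1.42.0, other size factors, library size alone, no filter, the groups of a comparison alone, a replicate block, each library left out, the mitochondrial ribosomal RNA share as a term, equal depth, and replicate 3 of both DOX and untreated cells left out. The members and gene lists were chosen with earlier results of these data known. The text names all members and NRIP1 and, of each other list, up to 4 genes with the smallest adjusted p in the comparison described, retinoid receptors, carriers and enzymes excepted. Genes most like each member are those with a mean of at least 2 CPM and the smallest root-mean-square difference over the 3 log2 changes against untreated cells. The promoters of TGM2, HIC1, PRAM1, PLAAT4 and RHBDL3 are not analysed here, and 1 listed gene was left out and is not reported here.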

Additional observations from a re-analysis of the deposited data

Results flagged for a closer look

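Among the listed genes that are not members, the ATRA effect of a pair differed between cells with and without DOX by the interaction test of edgeR. By that test 0.0435% of all tested genes had a positive interaction and 0.224% a negative one. The lists were chosen with earlier results of these data known. For CD38 the ATRA effect was smaller with DOX, at an interaction of -0.77 on the log2 scale (adjusted p = 0.0321), and for BTG2 it was also smaller, at -0.95 (adjusted p = 0.0275). CD38 averaged 180 ± 13.2 CPM with both agents, 207 ± 22.2 CPM with ATRA, 20.3 ± 2.69 CPM with DOX and 13.8 ± 1.14 CPM in untreated cells (SD, n = 3 each). BTG2 averaged 41.5 ± 4.16 CPM, 49.4 ± 2.51 CPM, 18.0 ± 4.35 CPM and 11.2 ± 0.286 CPM in the same order of groups. The call was lost in 10 of 20 alternative settings for CD38 and in 9 for BTG2, some of them without a single library, and the direction was kept in all of them.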

How the results depend on the processing

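All members called with ATRA, with or without DOX, kept direction and call in all alternatives run, and no member's called direction turned. At equal depth, the genes called fell to 2693 for ATRA against untreated cells (4652 otherwise), 1906 for both agents against DOX (3054), 1157 for DOX against untreated (2446), 381 for both agents against ATRA (713), 3347 for both against untreated (6124) and 13 for the interaction (43), as fewer counts were used. With the mitochondrial ribosomal RNA share as a term, DOX against untreated cells gave 77 genes and both agents against untreated 3364. DOX against untreated gave 1573 genes with its groups alone and 167 without replicate 3 of both, and 659 to 4328 when single libraries were left out (fewest without replicate 2 of DOX). Its 4 members became 2 by library size alone, 1 with its groups alone or the mitochondrial term, 0 at equal depth or without replicate 3 of both, and 2 to 4 without single libraries. Both agents against ATRA gave 264 to 1028 genes and 1 to 3 members without single libraries. The interaction gave 119 genes by DESeq2, 24 by library size alone, 189 without a filter (with 2 members), 9 without replicate 3 of both DOX and untreated, and 10 to 747 genes and 0 to 2 members without single libraries. The cause was not tested where not stated. With a replicate block, DOX against untreated gave 2348 genes and 3 members, and ASB2 was at 1.08 (adjusted p = 0.0753); same-numbered libraries had correlations of -0.244 to 0.267 in their deviations from group means, with 4 of 18 pairs over 0.1, and 3 of 12 libraries correlated best with their own number, so that the numbers are not taken as pairs. Counts over the gene lists moved by over 1.5 times in 267 repeats and stayed within that in 2983, repeats added after seeing the data. Depth limits the values without ATRA of TGM2, RHBDL3, THBS1, ASB2 and PLAAT4, which had 4 to 39 counts per group there.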

Other observations

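The genes nearest to each member by their 3 log2 changes against untreated cells are given as a description, since all comparisons share the untreated libraries. For HIC1 they were SEMA6B and SLC43A2, at differences of 0.13 and 0.14 on the log2 scale (root mean square). PRAM1 was closest to PTPN3 (0.01) and GJA3 (0.03), and TNFAIP2 to RHPN1 (0.03) and TNFRSF1B (0.06), a receptor for tumor necrosis factor. ID1 had SMIM3 (0.14) and ARRDC3 (0.16) at its side, and ID2 had GJB7 and C17orf100 (0.13 each), both with a mean near 2 CPM. ITGA6, an integrin subunit, was among the nearest of both ASB2 (0.31) and PLAAT4 (0.27), beside CHRNA6 (0.20) and NCF1 (0.29). The genes with the steepest changes had few like them: the nearest to TGM2 were NGFR at 1.5 and CCL2 at 2.01, to THBS1 CCL2 at 0.79 and RHBDL3 at 1.78, and to RHBDL3 MLXIPL at 0.47 and DHRS3 at 0.84.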
